A study of Mus musculus with 25 samples.

Results

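The 10 genes described here encode collagens and other proteins of scar matrix: Col1a1, Col1a2 and Col3a1 (fibrillar collagen chains), Col4a1 and Col4a2 (basement membrane collagen chains), Fn1 (fibronectin), Sparc, Bgn (biglycan), Dcn (decorin) and A2m (alpha-2-macroglobulin). They were chosen by symbol, as a list of known matrix genes, but with earlier results of these data known. All 10 are among the 23351 genes of the deposited table. The study sequenced RNA from mouse oligodendrocyte precursor cells (OPC), the glial cells that give rise to oligodendrocytes, which were taken from brain sections by laser capture microdissection. White matter stroke damages myelinated fibre tracts by loss of blood supply, and the comparisons ask how the captured cells differ after it. The 25 libraries comprise 7 taken at Day 15 of white matter stroke, 8 taken at Day 5 of white matter stroke and 10 controls. The sources used here do not give the strain, sex or age of the mice, how the stroke was made, what was done to the controls or how cells were recognised for capture. They also do not say which captured samples came from the same animal. Where animals are shared within a group the p-values come out too small, and in any case they reflect only the spread between these libraries, which may be technical.

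The extracellular matrix of the healthy brain holds little fibrillar collagen, which sits mainly in the meninges and around larger vessels. Type IV collagen and laminins form the basement membrane that sheathes brain capillaries. After injury a scar forms in which perivascular fibroblasts, pericytes, astrocytes and invading macrophages lay down or remodel matrix. Type I collagen is assembled from Col1a1 and Col1a2 chains, type III collagen from Col3a1 chains alone, and type IV collagen of capillaries from Col4a1 and Col4a2 chains. Fibronectin is an early provisional matrix glycoprotein, Sparc is a collagen-binding matricellular protein, biglycan and decorin are small leucine-rich proteoglycans, and A2m is a secreted inhibitor that traps proteases.

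Levels are given in RPKM as deposited, a read number per length of gene and per sequenced reads of the library, at unknown depth. Between 1749 and 5266 genes reached 1 RPKM in Day 15 libraries, between 2353 and 6592 in Day 5 libraries and between 1306 and 4320 in controls. In such bulk libraries fewer cells of a type and less RNA per cell cannot be told apart. Defining OPC markers were low in many libraries. Pdgfra had a median of 0.643 RPKM at Day 15, 4.71 at Day 5 and 0.607 in controls, and Cspg4, the NG2 proteoglycan, was listed at 0 in 3 of 10 controls. Sox10, shared by OPC and oligodendrocytes, had medians of 2.35 RPKM at Day 15, 1.91 at Day 5 and 2.01 in controls. Over the 4319 genes that reached 1 RPKM in 7 or more libraries, Day 5 replicate 4 and Day 15 replicate 5 were the pair of libraries most alike. Their Pearson r was 0.43 on the log2 scale across genes, which are not independent replicates, and no 2 libraries were identical. Other pairs were nearly as alike, such as Day 5 replicates 9 and 10 (0.42). An alternative fit, taken over from an earlier reading of these data, left out Day 5 replicate 4 and Day 15 replicates 5 and 6 together.

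The matrix genes together were a small signal carried by different genes in different libraries. Their summed RPKM ran from 13.6 to 74.5 with a median of 56.1 at Day 15, from 11.7 to 104 with a median of 41.7 at Day 5, and from 2.73 to 25.0 with a median of 6.15 in controls. The ranges overlapped, and the highest library was at Day 5. The RPKM of all genes but Rn45s also differed, with median library sums of 35366 at Day 15, 36697 at Day 5 and 18175 in controls. Summed levels of a gene list, here and below, are thus not on a common scale across groups. A median of 5 of the 10 genes reached 1 RPKM in a Day 15 library, 5 in a Day 5 library and 2.5 in a control. Sparc was the most abundant of the 10 in 13 of 25 libraries and Fn1 in 6. In the other 6 libraries the leading gene was Col1a1 (2 libraries), Col1a2, Col4a1, Bgn or A2m (1 library each). At Day 15 Bgn held 79.2% of the summed RPKM in replicate 8 and Fn1 held 73.4% in replicate 7. At Day 5 Sparc held 70.9% in replicate 1 and Col1a1 held 66.2% in replicate 4.

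**Figure D1:**
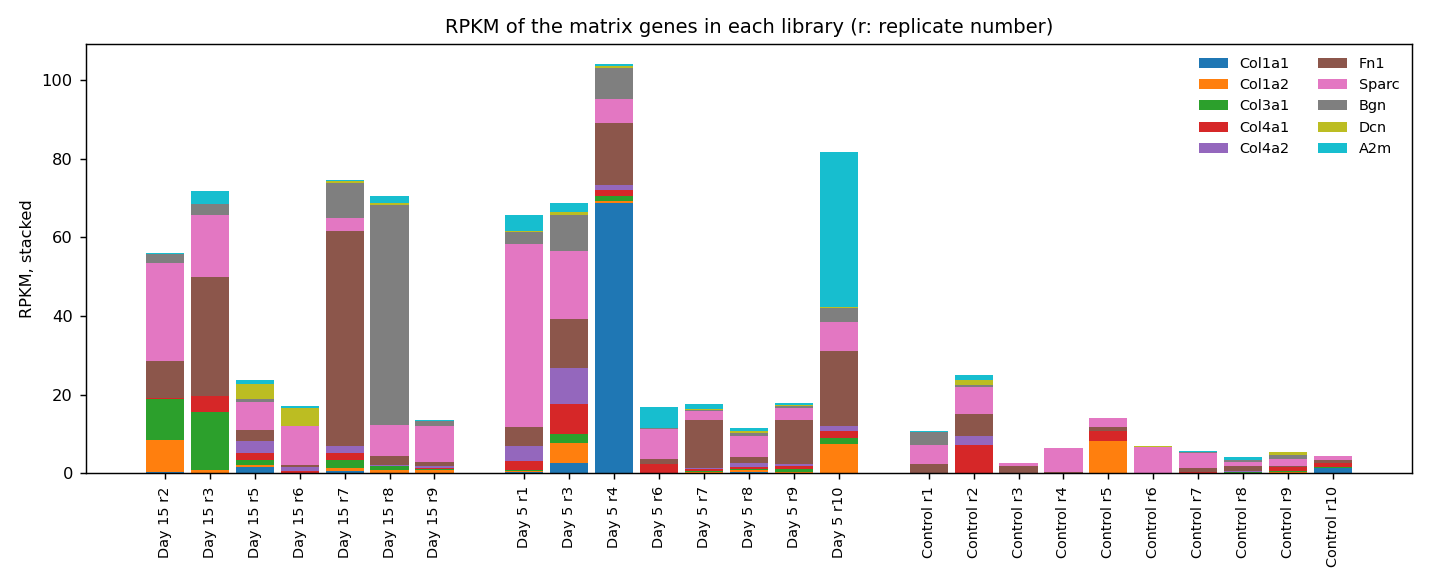
Stacked bars give the RPKM of the 10 matrix genes in each of the 25 libraries, with Day 15 libraries at the left, Day 5 libraries in the middle and controls at the right. The tall bars are made by different genes, such as Bgn at 56.0 RPKM in Day 15 replicate 8 and Col1a1 at 68.8 RPKM in Day 5 replicate 4, and the highest control reaches 25.0.

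By median RPKM, a unit scaled to gene length whose lengths the sources used here do not give, Sparc led at Day 15 (9.14) and in controls (3.06), and Fn1 led at Day 5 (11.7, against 6.69 for Sparc). Sparc exceeded Fn1, its neighbour in that order, in 5 of 7 Day 15 libraries and 8 of 10 controls, while Fn1 exceeded Sparc in 4 of 8 Day 5 libraries. Most other neighbours in the order also changed places between libraries. Bgn exceeded Col3a1 in 3 of 7 Day 15 libraries, and Bgn exceeded A2m in 3 of 8 Day 5 libraries. Clearer steps lay between Col3a1 and Col1a2 at Day 15 (6 of 7 libraries) and between Sparc and Bgn at Day 5 (7 of 8 libraries). In controls the medians of the 5 genes below A2m ran from 0.0718 for Col1a2 through 0.0117 for Dcn, 0.00945 for Col1a1 and 0.00835 for Col4a2 to 0.00627 for Col3a1.

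**Figure D2:**
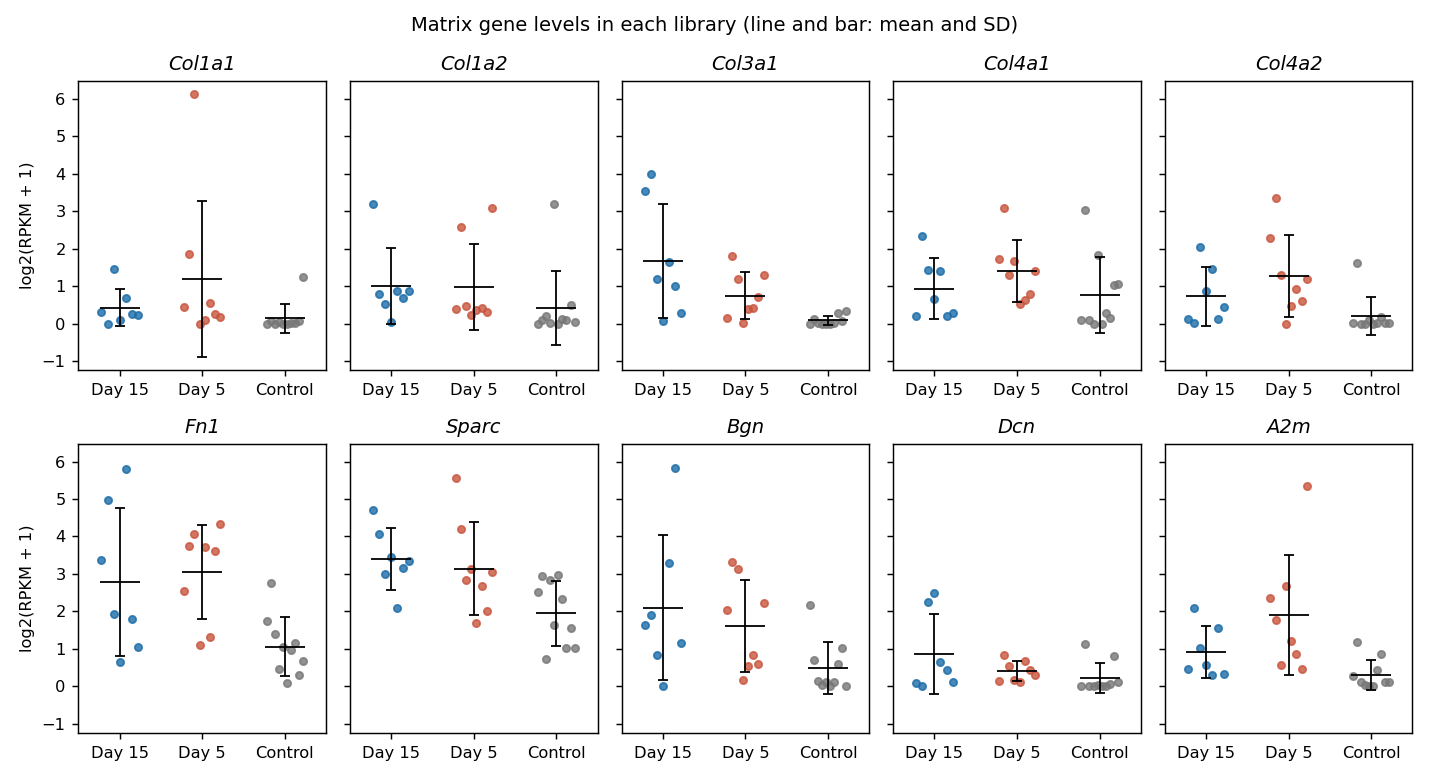
Each panel gives log2(RPKM + 1) of 1 gene in every library at Day 15, at Day 5 and in controls, with points for libraries and a line and bar for the mean and SD. Groups overlap in every panel, and Col3a1 in controls lies lowest and tightest, with no control above 0.266 RPKM.

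Among the fibrillar collagens, Col3a1 reached 1 RPKM in 8 libraries, all of them stroke libraries, and the type I chains in 4 libraries each. The windows around the annotated starts of Col3a1 and Col1a2 are shown because these genes varied together across libraries, as described below. Each runs from 250 bases before to 50 bases after the start, on the plus strand of GRCm38.p6 in RefSeq, a later build than the authors' mm9. The Col3a1 window is chr1:45311288-45311587 and the Col1a2 window is chr6:4505368-4505667. Capitals mark matches on either strand to CCAAT, the CCAAT box, to TATAAA, the TATA box, to GGGCGG, an Sp1 motif, and to TGANTCA, an AP-1 motif. No match to one motif overlaps a match to another in these windows.
Col3a1: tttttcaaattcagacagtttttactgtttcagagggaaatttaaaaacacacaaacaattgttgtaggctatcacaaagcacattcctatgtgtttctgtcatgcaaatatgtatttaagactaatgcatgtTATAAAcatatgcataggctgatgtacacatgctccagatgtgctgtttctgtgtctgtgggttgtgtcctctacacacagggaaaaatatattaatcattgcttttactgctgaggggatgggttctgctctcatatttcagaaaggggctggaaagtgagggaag
Col1a2: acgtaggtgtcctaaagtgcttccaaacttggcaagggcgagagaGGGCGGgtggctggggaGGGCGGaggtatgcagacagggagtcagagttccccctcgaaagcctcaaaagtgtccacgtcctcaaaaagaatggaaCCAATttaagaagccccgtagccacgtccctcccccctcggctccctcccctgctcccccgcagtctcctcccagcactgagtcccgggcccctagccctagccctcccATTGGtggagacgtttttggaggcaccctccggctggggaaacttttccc
The Col3a1 window holds 1 TATAAA match and none of the other motifs, and the Col1a2 window holds 2 CCAAT and 2 GGGCGG matches. Of 32851 RefSeq mouse windows of the same length, 37.4% hold CCAAT, 13.6% TATAAA, 35.7% GGGCGG and 7.81% TGANTCA. RefSeq windows were at hand for 6 of the 10 genes, of which 3 hold CCAAT, 1 TATAAA, 4 GGGCGG and 0 TGANTCA.

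Col3a1 ran from 0.0418 to 14.8 RPKM with a median of 1.26 at Day 15, from 0.0130 to 2.47 with a median of 0.473 at Day 5, and from 0 to 0.266 with a median of 0.00627 in controls. It reached 1 RPKM in 5 of 7 Day 15 libraries, 3 of 8 Day 5 libraries and 0 of 10 controls, and 5 Day 15 and 6 Day 5 libraries lay above the highest control. Day 15 replicate 3 (14.8 RPKM) and the next highest Day 15 library (10.6) stood well above every Day 5 library. The difference in mean log2(RPKM + 1) was 1.58 (SE 0.40, limma adjusted p = 0.0850) between Day 15 and control, 0.66 (SE 0.39, adjusted p = 0.270) between Day 5 and control, and 0.92 (SE 0.42, adjusted p = 0.302) between Day 15 and Day 5. None passed the adjusted p of 0.05, although the Day 15 difference passed with a pseudocount of 0.1 (3.45, adjusted p = 0.0215). It also passed after quantile normalization (1.43, adjusted p = 0.0396) and without the 3 libraries left out together (2.00, adjusted p = 0.0374). Those 3 libraries include Day 15 replicate 6, the lowest Day 15 library for Col3a1 (0.0418 RPKM). The Day 15 difference thus passed in 3 of 14 alternative fits, and in 0 of 17 fits that each left out 1 library. Within numbers 1 to 6 and 7 to 10 the Day 15 difference of Col3a1 was 2.17 and 0.79 (adjusted p = 0.248 and 0.734). Its Day 5 difference passed in an exact permutation test (adjusted p = 0.0208) and with the compared groups alone (0.0468), and was 0.25 after upper-quartile scaling and 0.21 with detected genes as a covariate (adjusted p = 0.956 and 0.922).

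Col1a1 ran from 0 to 1.75 RPKM with a median of 0.185 at Day 15, from 0 to 68.8 with a median of 0.274 at Day 5, and from 0 to 1.35 with a median of 0.00945 in controls. Nearly all of its Day 5 signal came from replicate 4, and the Day 5 mean of 9.08 RPKM falls to 0.549 without that library. Col1a2 ran from 0.0280 to 8.17 RPKM with a median of 0.742 at Day 15, from 0.170 to 7.45 with a median of 0.316 at Day 5, and from 0 to 8.19 with a median of 0.0718 in controls. Its 3 group maxima were close together, so no Day 15 or Day 5 library lay above the highest control, replicate 5. The same control had Col1a1 listed at 0. Conversely, Col1a2 was at 0.380 RPKM in Day 5 replicate 4, where Col1a1 peaked.

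Col1a1 and Col1a2 each reached 1 RPKM in 4 of 25 libraries, too few to be tested with the other genes. Without the filter on low values, Col1a1 differed by 0.29 (SE 0.58, adjusted p = 1) between Day 15 and control and by 1.05 (SE 0.56, adjusted p = 0.405) between Day 5 and control. The Day 5 difference of Col1a1 dropped to 0.34 without Day 5 replicate 4. Col1a2 differed by 0.57 (SE 0.51, adjusted p = 0.942) at Day 15 and by 0.55 (SE 0.49, adjusted p = 0.610) at Day 5.

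The chain pairs of a heterotrimer need not be captured together in these libraries. Both type I chain genes reached 1 RPKM in 1 library (Day 5), Col1a1 alone in 3, Col1a2 alone in 3 and neither in 18. Across the 25 libraries Col1a1 and Col1a2 had a Pearson r of 0.027 and a Spearman rho of 0.38 on log2(RPKM + 1), with permutation p adjusted over 8 relations of 0.993 and 0.0983. Their rho was 0.21 at Day 15, 0.57 at Day 5 and 0.088 in controls. Col1a2 and Col3a1 had a Pearson r of 0.50 and a Spearman rho of 0.64, with adjusted permutation p of 0.0334 and 0.00296. These p-values are against a relation of 0, with libraries shuffled across the groups, so differences between groups that both genes share also count. The median rho of Col3a1 with 4308 tested genes was 0.24. Without the 2 libraries farthest from the Col1a2 median, the Col1a2 and Col3a1 r was 0.50 and rho was 0.81. Within groups the Col1a2 and Col3a1 rho was 0.57 at Day 15, 0.81 at Day 5 and 0.21 in controls, and the relation in controls was thus weak and opposite in sign by Pearson r (-0.23). Within libraries numbered 1 to 6 and 7 to 10 in their names, rho was 0.63 and 0.52.

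Type IV collagen is the main network-forming collagen of the capillary basement membrane, and its 2 chain genes lie head to head on opposite strands of chromosome 8. Their RefSeq starts in GRCm38.p6 are 21 bases apart, so that the Col4a1 window (chr8:11312777-11313076, minus strand) and the Col4a2 window (chr8:11312555-11312854, plus strand) share 78 bases. They are shown because the pair is known to be transcribed in both directions from this common stretch, which capitals mark in each window, read on its own strand.
Col4a1: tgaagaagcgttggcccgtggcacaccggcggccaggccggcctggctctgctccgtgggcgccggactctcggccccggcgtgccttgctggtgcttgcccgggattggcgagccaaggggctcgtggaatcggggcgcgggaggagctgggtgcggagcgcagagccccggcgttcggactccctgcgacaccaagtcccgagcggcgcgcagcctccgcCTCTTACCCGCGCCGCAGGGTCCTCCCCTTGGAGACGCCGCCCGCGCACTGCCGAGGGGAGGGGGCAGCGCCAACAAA
Col4a2: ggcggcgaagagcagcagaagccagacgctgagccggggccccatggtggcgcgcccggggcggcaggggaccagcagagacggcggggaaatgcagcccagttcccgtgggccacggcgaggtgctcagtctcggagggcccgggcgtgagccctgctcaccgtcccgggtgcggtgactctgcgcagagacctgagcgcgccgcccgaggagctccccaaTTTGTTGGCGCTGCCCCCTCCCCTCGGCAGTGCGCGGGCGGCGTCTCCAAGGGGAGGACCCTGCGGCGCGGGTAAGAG
The Col4a1 window holds 1 CCAAT and 1 GGGCGG match and the Col4a2 window 1 CCAAT and 3 GGGCGG matches, and neither holds TATAAA or TGANTCA. The annotated genes overlap on opposite strands, and the sources used here do not say whether counting used strand, so reads from the overlap cannot be assigned with certainty.

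Col4a1 ran from 0.152 to 4.06 RPKM with a median of 0.5677 at Day 15, from 0.427 to 7.53 with a median of 1.55 at Day 5, and from 0 to 7.14 with a median of 0.169 in controls. All 8 Day 5 libraries lay above the control median, but 1 lay above the highest control, replicate 2. Col4a2 ran from 0.00500 to 3.15 RPKM with a median of 0.347 at Day 15, from 0 to 9.29 with a median of 1.10 at Day 5, and from 0 to 2.07 with a median of 0.00835 in controls. One control, replicate 2, held both chains at their control maxima, and the next highest control had 0.131 RPKM of Col4a2. Day 5 replicate 3 was the highest library for both chains.

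Neither type IV chain gene passed the test. Col4a2 differed by 1.07 (SE 0.36, limma adjusted p = 0.0562) between Day 5 and control, 0.53 (SE 0.37, adjusted p = 0.732) between Day 15 and control and -0.54 (SE 0.39, adjusted p = 0.530) between Day 15 and Day 5. Col4a1 differed by 0.63 (SE 0.45, adjusted p = 0.372), 0.17 (SE 0.47, adjusted p = 0.962) and -0.46 (SE 0.50, adjusted p = 0.687) in the same order. The Day 5 difference of Col4a2 reached an adjusted p of 0.0271 without Control replicate 2. It was also under 0.05 without Day 5 replicate 6, 7 or 9 (0.0289, 0.0361 and 0.0465). Of 14 alternative fits of other kinds, Col4a2 passed at Day 5 in 5, with the lowest adjusted p under a pseudocount of 0.1 (0.0197). Without Day 5 replicate 3 the difference of Col4a2 was 0.78 (adjusted p = 0.157), after upper-quartile scaling 0.49 (0.822) and with detected genes as a covariate 0.17 (0.919).

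Both Col4a1 and Col4a2 reached 1 RPKM in 7 libraries, Col4a1 alone in 5 and neither in 13, and Col4a2 was never at 1 RPKM alone. Their Pearson r was 0.64 and their Spearman rho 0.55 across 25 libraries, with adjusted permutation p of 0.00296 and 0.0128. These p-values too are against a relation of 0 and shuffle libraries across groups. Over 4308 tested genes the median rho was already 0.34 with Col4a1 and 0.39 with Col4a2. Without Day 5 replicate 3 and Control replicate 2, the libraries farthest from the median, r of the 2 chain genes was 0.42 and rho 0.43. Within groups r was 0.27 at Day 15, 0.78 at Day 5 and 0.80 in controls, and rho was 0.25, 0.60 and 0.79. Within numbers 1 to 6 and 7 to 10, r was 0.63 and 0.60 and rho 0.65 and 0.35.

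**Figure D3:**
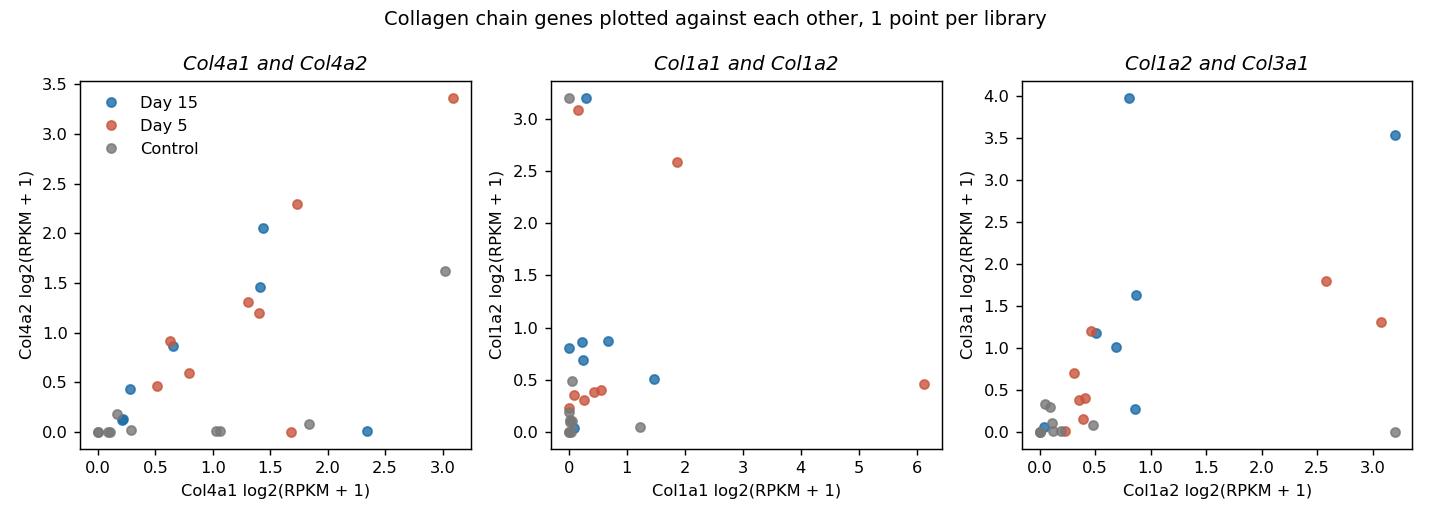
Each panel plots log2(RPKM + 1) of 1 collagen chain gene against another, 1 point per library coloured by group. Col4a1 and Col4a2 spread along a diagonal (r = 0.64), most high values of Col1a1 and Col1a2 lie along separate axes (r = 0.027), and of the 2 highest Col3a1 libraries, both at Day 15, 1 has Col1a2 at 8.17 RPKM and 1 at 0.742 RPKM.

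Fibronectin and Sparc were the matrix glycoproteins present in most libraries, Fn1 at 1 RPKM or more in 19 of 25 and Sparc in 24 of 25. Fn1 ran from 0.564 to 54.7 RPKM with a median of 2.84 at Day 15, from 1.16 to 19.2 with a median of 11.7 at Day 5, and from 0.0646 to 5.79 with a median of 1.01 in controls. Every Day 5 library lay above the control median and 5 of 8 above the highest control, while 3 of 7 Day 15 libraries did, 2 of them above every Day 5 library. Sparc ran from 3.23 to 25.1 RPKM with a median of 9.14 at Day 15, from 2.22 to 46.5 with a median of 6.69 at Day 5, and from 0.667 to 6.77 with a median of 3.06 in controls. In Sparc 6 of 7 Day 15 libraries and 4 of 8 Day 5 libraries lay above the highest control.

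The Fn1 difference was 2.00 (SE 0.65, limma adjusted p = 0.0527) between Day 5 and control and 1.74 (SE 0.67, adjusted p = 0.390) between Day 15 and control. Fn1 passed at Day 5 without Day 5 replicate 6 or 8 (adjusted p = 0.0282 and 0.0368) and without Control replicate 2 (0.0328). In the other fits that left out 1 library its adjusted p was up to 0.103, without Day 5 replicate 3. Of 15 alternative fits of other kinds Fn1 passed at Day 5 in 7, with the lowest adjusted p under library weights (0.0167). It did not pass after sum scaling (0.3325), after quantile normalization (0.292) or with detected genes as a covariate (0.540). Sparc differed by 1.44 (SE 0.63, adjusted p = 0.469) at Day 15 and by 1.19 (SE 0.61, adjusted p = 0.203) at Day 5. After upper-quartile scaling the Day 5 difference was 0.0078 for Sparc and 0.97 for Fn1 (adjusted p = 0.999 and 0.858). For Sparc it was 0.43 after sum scaling, 0.40 after quantile normalization and 0.43 with detected genes as a covariate. Between Day 15 and Day 5 the difference was -0.26 (SE 0.71, adjusted p = 0.884) for Fn1 and 0.25 (SE 0.66, adjusted p = 0.879) for Sparc. Fn1 overlaps an antisense gene, Apol7d, so its reads are uncertain without strand.

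Of the small proteoglycans, which bind collagen fibrils, Bgn reached 1 RPKM in 11 libraries and Dcn in 3, and no library held both at that level. Bgn ran from 0.00354 to 56.0 RPKM with a median of 2.09 at Day 15, from 0.118 to 9.05 with a median of 1.94 at Day 5, and from 0 to 3.50 with a median of 0.0948 in controls. Day 15 replicate 8 decided the Day 15 mean, which was 10.2 RPKM with it and 2.62 without it. Dcn ran from 0.00161 to 4.64 RPKM with a median of 0.349 at Day 15, from 0.0781 to 0.779 with a median of 0.294 at Day 5, and from 0 to 1.17 with a median of 0.0117 in controls. The only Dcn values above the highest control were in Day 15 replicates 6 and 5, at 4.64 and 3.74 RPKM.

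Bgn differed by 1.60 (SE 0.59, limma adjusted p = 0.348) between Day 15 and control and by 1.12 (SE 0.57, adjusted p = 0.207) between Day 5 and control. Without Day 15 replicate 8 the Day 15 difference of Bgn was 0.98, and its difference between Day 15 and Day 5 was -0.14, against 0.49 with it. Dcn, too low for the filter, differed by 0.64 (SE 0.31, adjusted p = 0.942) at Day 15 and 0.19 (SE 0.30, adjusted p = 0.789) at Day 5 in the fit without one. Bgn and Dcn had a Pearson r of 0.0017 and a Spearman rho of 0.30 across libraries (adjusted permutation p of 0.993 and 0.190).

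A2m, which inhibits proteases of all main classes, was the 1 gene of the 10 that passed the test, and it rose at Day 5. It ran from 0.369 to 39.4 RPKM with a median of 1.86 at Day 5, and from 0 to 1.27 with a median of 0.0852 in controls. At Day 15 it ran from 0.227 to 3.26 RPKM with a median of 0.480. All 8 Day 5 libraries lay above the control median and 5 above the highest control, while no control lay above the Day 5 median, and the groups overlapped. Day 5 replicate 10 stood far above the next Day 5 library (5.34 RPKM), and the Day 5 mean of 6.77 RPKM falls to 2.12 without it.

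In mean log2(RPKM + 1), A2m differed by 1.59 between Day 5 and control (SE 0.47, limma adjusted p = 0.0369) and by 0.59 between Day 15 and control (SE 0.49, adjusted p = 0.782), and its difference between Day 15 and Day 5 was -0.996 (SE 0.51, adjusted p = 0.353). Within numbers 1 to 6 and 7 to 10 the Day 5 difference was 1.57 and 1.59 (adjusted p = 0.143 and 0.289). The call was lost in 9 of 18 fits that each left out 1 library, namely Day 5 replicates 1, 3 and 10 (adjusted p = 0.0647, 0.0636 and 0.0804) and Control replicates 1, 3, 4, 6, 9 and 10 (0.0537 to 0.0617). Rescaling the libraries removed the call as well, by their upper quartiles (1.12, adjusted p = 0.697), by their sums (1.19, 0.196) or by quantile normalization (1.13, 0.228), as did a covariate for detected genes (1.17, 0.446) and a fit without the filter (1.59, 0.170).

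Read over the list, 1 of 7 tested genes was called between Day 5 and control, against 6.04% of the 4319 genes tested, nearly all of them higher (6.02%). With 7 genes 1 call is not told apart from that background. The list was chosen with earlier results of these data known, so none of the counts given here is an independent test of it. Between Day 15 and control 0 of 7 were called (background 0.0926%), and between Day 15 and Day 5 0 of 7 (background 0%). At an unadjusted p under 0.05 by limma were 3 of 7 between Day 5 and control (26.0% of all tested genes), 4 of 7 between Day 15 and control (8.87%) and 1 of 7 between Day 15 and Day 5 (14.7%). The differences of all 7 were above 0 at both days against control, and those of all tested genes were above 0 for 84.9% at Day 5 and 62.1% at Day 15. The median difference of all tested genes was 0.61 at Day 5, 0.17 at Day 15 and -0.44 between Day 15 and Day 5. The difference of Col4a1 at Day 5 (0.63) is close to that median. Col3a1, Bgn, Fn1 and Sparc at Day 15 lie above the median by more than 1.2. Col1a1, Col1a2 and Dcn were not tested, and Col3a1, which no control held at 1 RPKM, entered the test through stroke libraries alone. A2m reached 1 RPKM in 5 Day 5, 3 Day 15 and 1 control library, and Col4a2 in 4, 2 and 1. Both thus entered mostly through stroke libraries, and the A2m call is of a gene that met the filter mainly where it was high.

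**Figure D4:**
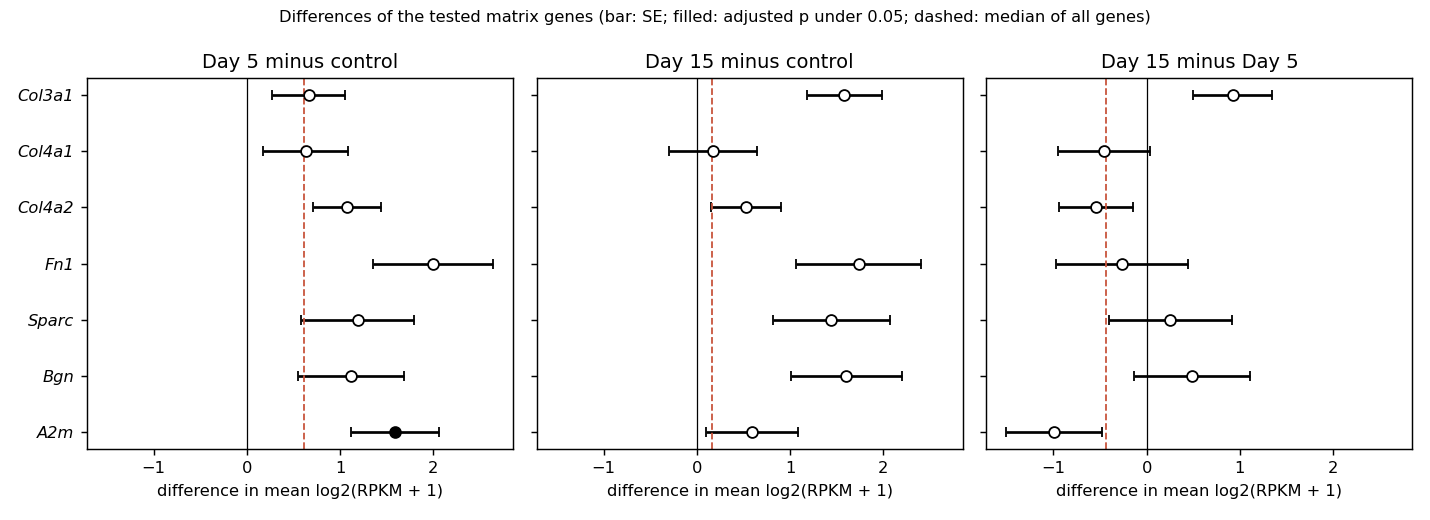
Points give the difference in mean log2(RPKM + 1) of the 7 tested genes in the 3 comparisons, with bars for SE, and the dashed line is the median of all tested genes. Only A2m at Day 5 is filled (adjusted p = 0.0369), and at Day 15 Col3a1, Bgn, Fn1 and Sparc lie between 1.44 and 1.74, against a median of 0.17.

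Other matrix genes, taken from 10 lists of collagens, basement membrane, glycoproteins, proteoglycans, collagen processing, proteases, inhibitors, TGF-beta pathway and receptors, gave few calls. Of 209 such genes in the table besides the 10, 57 passed the filter, and at Day 5 2 were higher and 0 lower than in controls (3.51%). The median difference of the 57 was 0.64 at Day 5, 0.50 at Day 15 and -0.22 between Day 15 and Day 5, and 0 were called in the later comparisons. Of the 8 fibrillar collagens besides Col1a1, Col1a2 and Col3a1, none passed the filter on low values, and of 22 other collagens only Col12a1 did.

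The called genes were Spp1 and Itga6. Spp1 encodes osteopontin, a matrix glycoprotein that macrophages and microglia secrete, and it ran from 3.46 to 1818 RPKM with a median of 61.8 at Day 5, against 0.0563 to 12.8 with a median of 0.486 in controls. It was higher at Day 5 by 5.17 (SE 0.81, limma adjusted p = 0.000136), and with detected genes as a covariate the difference was 3.37 (adjusted p = 0.104). Itga6 encodes the alpha subunit of a laminin receptor and had a median of 5.14 RPKM at Day 5 and 0.312 in controls, a difference of 2.02 (SE 0.61, adjusted p = 0.0371). The Itga6 call was lost in 9 of the 18 fits without 1 library (highest adjusted p = 0.105, without Day 5 replicate 3), under the 3 scalings, without the filter and with detected genes as a covariate. Within numbers 1 to 6 and 7 to 10 the difference was 5.14 and 5.38 for Spp1 (adjusted p = 0.0276 and 0.117) and 2.06 and 2.18 for Itga6 (adjusted p = 0.237 and 0.117).

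Genes around the matrix that did not pass are given by value. They were picked as genes with the smallest p of their list at Day 5, so their low p-values there follow from that choice. Among inhibitors, Timp2 had a median of 5.91 RPKM at Day 5 and 0.932 in controls (difference 1.75, adjusted p = 0.0573). Among TGF-beta genes, the receptor Tgfbr1 had a median of 6.39 RPKM at Day 5 and 1.26 in controls (difference 1.66, adjusted p = 0.0646), and the 8 tested genes of that list had a median difference of 1.10 at Day 5. The basement membrane laminin chain Lama4 had a median of 1.44 RPKM at Day 5 and 0.107 in controls (difference 0.97, adjusted p = 0.0551). P4ha1, a collagen prolyl hydroxylase subunit, had a median of 1.61 RPKM at Day 5 and 0.220 in controls (difference 0.96, adjusted p = 0.0743). Mmp12, the macrophage elastase, had a median of 3.29 RPKM at Day 5 and was listed at 0 in the median control (difference 1.56, adjusted p = 0.0542). The endocytic receptor Lrp1, which clears A2m bound to proteases, had a median of 24.3 RPKM at Day 5 and 6.99 in controls (difference 2.20, adjusted p = 0.0685). The 8 tested matrix proteases had a median difference of -0.87 between Day 15 and Day 5, against -0.44 over all tested genes.

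Of the marker lists of other cell types, only those of macrophages and microglia held called genes, all of them at Day 5. The part of any of these cell types in the matrix values was not tested. The 11 macrophage markers summed to a median of 100 RPKM at Day 15, 520 at Day 5 and 14.4 in controls. Of the 7 tested, 6 were called higher at Day 5, against 6.02% of all tested genes. Lyz2 (174 RPKM) and Gpnmb (159) had the highest Day 5 medians of that list. The Day 5 medians of Ccr2 (0.857), Cd14 (0.255), Cd163 (0.144) and Mrc1 (0.133) were under 1 RPKM. The 16 microglia markers summed to medians of 262, 163 and 27.4 RPKM in that order of groups, with 5 of 15 tested called higher at Day 5 and 0 at Day 15. Of the cells known to make fibrillar collagen, the 13 fibroblast markers summed to 0.0124 to 5.35 RPKM at Day 15, 0.8289 to 8.76 at Day 5 and 0.0118 to 7.66 in controls, with medians of 1.58, 1.91 and 0.729. None of the 13 passed the filter, and 6, 1 and 9 of them had a median of 0 in those groups. Slc6a13 (up to 7.70 RPKM), Slc22a6 (7.66) and Cyp1b1 (4.06) reached the highest values, while Lum did not exceed 0.451 RPKM and Dpt 0.273 in any library. The 11 pericyte and smooth muscle markers summed to medians of 3.47, 11.3 and 3.69 RPKM, with ranges of 1.74 to 17.4, 3.52 to 41.4 and 0.173 to 25.6. Anpep (up to 36.6 RPKM), which myeloid cells are also known to express, reached the highest value of that list, and Pdgfrb had medians of 0.0354, 0.367 and 0.104.

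The 15 endothelial markers summed to medians of 15.7 RPKM at Day 15, 15.9 at Day 5 and 11.8 in controls, with ranges of 1.09 to 46.5, 4.73 to 39.5 and 1.19 to 37.7. Slc2a1 (up to 32.7 RPKM), Flt1 (24.8) and Esam (21.5) reached the highest values of that list and Cldn5, a tight junction protein, the lowest (0.806). Astrocyte markers summed to medians of 213, 69.7 and 72.1 RPKM in that order, oligodendrocyte markers to 168, 248 and 639, OPC markers to 26.0, 27.5 and 18.5, and neuron markers to 3.75, 4.35 and 8.08. Of the 8 OPC and 9 oligodendrocyte markers tested, 0 were called in any of the 3 comparisons. Day 5 replicate 4, with the Col1a1 peak, had the highest macrophage sum (2434 RPKM) and the highest pericyte and smooth muscle sum (41.4 RPKM) of the 25 libraries, and a fibroblast sum of 1.60 RPKM. Of that pericyte and smooth muscle sum, 36.6 RPKM was Anpep, which myeloid cells are also known to express. Day 5 replicate 3, with the type IV collagen peak, had an endothelial sum of 35.2 RPKM and a pericyte and smooth muscle sum of 25.0 RPKM. Control replicate 4, with Col4a1 and Col4a2 both listed at 0, had sums of 37.7 and 25.6 RPKM of the same lists. Day 15 replicate 8, with the Bgn peak, had a macrophage sum of 45.9 RPKM, a pericyte and smooth muscle sum of 2.64 RPKM and an endothelial sum of 5.07 RPKM.

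**Figure D5:**
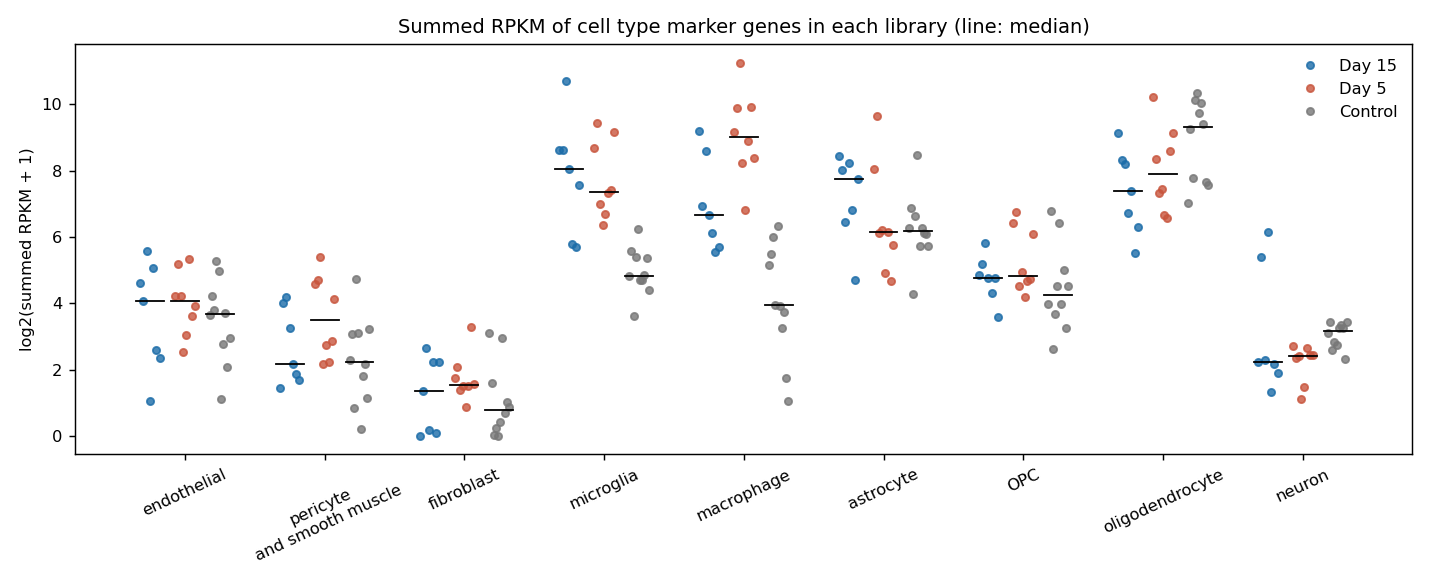
Points give log2(summed RPKM + 1) of each cell type's marker genes in every library at Day 15, at Day 5 and in controls, and lines give the median. Macrophage markers sum to medians of 100 RPKM at Day 15, 520 at Day 5 and 14.4 in controls, with 6 of 7 tested called higher at Day 5 and 0 at Day 15, and fibroblast markers have the lowest median in each group.

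The genes whose levels ran most nearly parallel to a matrix gene over the 25 libraries are named by the highest Spearman rho among 4308 genes, as a description. For Sparc they were Csf1r (rho 0.79), the receptor on which microglia depend, Ptprc (0.78), the leukocyte antigen CD45, and Pik3cg (0.78), against a median of 0.19 over all genes. For Fn1 they were Lacc1 (0.82), P2rx4 (0.82) and Cd34 (0.78), with a median of 0.31, and for Bgn C3ar1 (0.80), the complement C3a receptor, Cpne1 (0.78) and 2700060E02Rik (0.75), with a median of 0.24. Csf1r had a median of 20.4 RPKM at Day 15, 8.37 at Day 5 and 3.06 in controls, the same order of groups as Sparc.

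For the collagens the nearest genes were others, apart from Lacc1, which Col3a1 shared with Fn1. Col3a1 ran with Daglb (0.89), Lrrc3 (0.85) and Lacc1 (0.78), Col4a1 with Acox3 (0.85), Tbck (0.85) and Fam135a (0.79), and Col4a2 with Scyl2 (0.86), Gtf2b (0.85) and Ly9 (0.84), against medians of 0.24, 0.34 and 0.39. A2m ran with Zdhhc17 (0.84), Sephs1 (0.82) and Pkn2 (0.78), with a median of 0.30. After group means were taken out, the nearest gene by Pearson r was Slc1a3 (0.82), an astrocyte glutamate transporter, for Sparc, Cd34 (0.75) for Fn1, Rap2b (0.76) for Bgn, Tmem43 (0.84) for A2m, Eif3l (0.87) for Col3a1, Fam135a (0.83) for Col4a1 and Fermt2 (0.89) for Col4a2. All of these values come from the same libraries, which differ in how many genes they hold.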

How the data were processed

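The 25 libraries were grouped by their labels into Day 15, Day 5 and control. Per the labels' protocols, cDNA of laser-captured samples was amplified with a Nugen Ovation kit and sequenced as paired ends after TruSeq preparation. The submitters' processing notes name HTSeq, STAR 2.1.4a, CASAVA 1.8.3 and the build mm9, with no order. The authors deposited RPKM. The sources used here do not give its scaling or gene lengths, depth is unknown and no counting interval can be given. Amplification of little RNA widens the spread between libraries and can lose low transcripts.

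From these values log2(RPKM + 1) was computed, which understates changes of low genes. Genes reaching 1 RPKM in 7 or more libraries (4319 genes) were fitted for all groups together with limma 3.58.1 in R 4.3.3 (trend and robust, two-sided), and called at a Benjamini-Hochberg adjusted p under 0.05. Names that a spreadsheet had turned into dates (25 rows) were tested but are not named. Relations between chain genes used 100000 permutations in scipy 1.17.1 (Python 3.11.15, numpy 2.4.6), two-sided. Fits were tested on simulated data. Promoter windows are RefSeq's, GRCm38.p6.

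The 10 genes and the other lists were chosen with earlier results of these data known. From each matrix list the called genes are named, and others from the 2 with the smallest p at Day 5. Alternatives were a pseudocount of 0.1, other filters, 3 scalings, library weights, a replicate block, covariates, an exact permutation test, subsets of libraries and leaving out each library. Fits without the filter that also leave out each library were added after seeing the data.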

Additional observations from a re-analysis of the deposited data

Results flagged for a closer look

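Within each group the highest and lowest library of each of the 10 genes was set against its neighbour on the log2 scale, by Dixon's criterion. Normally distributed values pass it by chance in about 1 in 20 groups. Many values here gather near 0 below a few high ones (Col1a1 was at 0 in 4 of 10 controls). That rate therefore cannot be used for the number of flags. The criterion singled out 8 of 30 groups, in 6 genes, each time for 1 high library. No cause was tested. The values were 68.8 RPKM of Col1a1 in Day 5 replicate 4 (next library 2.64), 1.35 RPKM of Col1a1 in Control replicate 10 (next 0.0418), 8.17 RPKM of Col1a2 in Day 15 replicate 2 (next 0.830) and 8.19 RPKM of Col1a2 in Control replicate 5 (next 0.399). For the type IV chains they were 7.53 RPKM of Col4a1 in Day 5 replicate 3 (next 2.32) and 2.07 RPKM of Col4a2 in Control replicate 2 (next 0.131). The others were 3.50 RPKM of Bgn in Control replicate 1 (next 1.03) and 39.4 RPKM of A2m in Day 5 replicate 10 (next 5.34).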

How the results depend on the processing

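Between Day 5 and control, where 1 gene of the list was called, 0 were called without a filter, after scaling by upper quartile, sum or quantiles, with detected genes as a covariate and within numbers 1 to 6 or 7 to 10. The count was 3 (A2m, Fn1 and Col4a2) with a pseudocount of 0.1, library weights, the replicate block or number range as a covariate. It was also 3 (A2m, Fn1 and Col3a1) by an exact permutation test, and 4 (A2m, Fn1, Col3a1 and Col4a2) with the compared groups alone. Leaving out each library gave 0 to 3. Between Day 15 and control the count was 1 (Col3a1) with a pseudocount of 0.1, quantile normalization or without 3 libraries together (Day 5 replicate 4, Day 15 replicates 5 and 6), and otherwise 0. Between Day 15 and Day 5 it was 0 throughout. A mean RPKM of at least 5 left Fn1 and Sparc of the list, and Fn1 was called at Day 5 (limma adjusted p = 0.0423). Over all genes Day 5 calls numbered 261, against 24 without a filter, 2, 33 and 38 after those scalings (median difference -0.095, 0.15 and 0.088), 553 with a pseudocount of 0.1, 597 with library weights, 481 by the permutation test, 398 with number range, 0 with detected genes as a covariate, 4 within each number range and 499 with the replicate block. Same-numbered libraries shared only a number (correlations of deviations from -0.057 to 0.084), so the block is no pairing. Some differences changed sign, none of them called. Col4a1 was -0.30 at Day 5 and -0.10 at Day 15 with detected genes, and at Day 15 -0.068 with sum scaling, -0.0016 within numbers 7 to 10 and -0.061 to 0.42 as each library was left out (-0.061 without Day 15 replicate 3). Between Day 15 and Day 5, upper-quartile scaling gave 0.20 for Col4a1, 0.30 for Col4a2 and 1.02 for Fn1, quantile normalization 0.015 for Col4a2 and 0.057 for Fn1, sum scaling 0.0023 for Fn1, and detected genes 0.20 for Col4a1, 0.097 for Col4a2 and 0.19 for Fn1. Fn1 was 0.48 without the 3 libraries, and -0.76 to 0.098 as each library was left out (0.098 and 0.029 without Day 15 replicates 6 and 9). Within numbers 1 to 6 Bgn was -1.07 and Sparc -0.13, and Bgn was -0.14 to 0.84 as each library was left out (-0.14 without Day 15 replicate 8). Col1a2 without a filter ran from -0.35 (without Day 15 replicate 2) to 0.32, with -0.065, -0.054, -0.088, -0.070, -0.062 and -0.076 without Day 5 replicates 1, 4, 6, 7, 8 and 9. The cause was not tested.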
